A study of Mus musculus with 2 samples.

Results

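Classical monocytes with high Ly6C were selected from 2 single-cell RNA libraries of brown adipose tissue (BAT) leukocytes. A barcode was a member where it held at least 5 UMIs of *Ly6c2*, *Chil3* and *Vcan* together and at least 5 of *Lyz2*. It also had to hold at most 1 UMI of *C1qa*, *C1qb* and *C1qc*, at most 1 of *Ace*, *Treml4* and *Cd300e*, and at most 1 of *Cd209a* and *Flt3*. *S100a8* and *S100a9* had to stay under 2% of its UMIs, and *Cd3e* and *Cd79a* at 0. A UMI is a molecular tag that marks 1 counted transcript. The rule found 388 members among 4295 kept cells, 280 of 2279 in the control library and 108 of 2016 in the AdipoΔ/Δ library.

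Both libraries hold CD45+ cells sorted from the BAT of male C57Bl/6 mice that carry AdipoQ-CreERT2 and ATGL fl/fl alleles. The labels give an age of 16 weeks. The text of the study gives a younger age, and which holds was not settled here. AdipoΔ/Δ mice received tamoxifen by intraperitoneal injection every 2 days for 1 week and then rested for 2 weeks. The adiponectin promoter drives the inducible Cre, so tamoxifen deletes ATGL, the triglyceride lipase encoded by *Pnpla2*, in adipocytes. Control mice carry the same alleles and received vehicle, so that tamoxifen itself and the deletion cannot be told apart. The deletion is not aimed at leukocytes, and the *Pnpla2* level of the members, 42.6 and 39.8 CPM (UMIs per 1000000 UMIs) in control and AdipoΔ/Δ, checks nothing. How many mice were pooled into a library is not given in the sources used here. Each group is 1 library. There is therefore no replicate error and no test, all cells of a group share 1 library, and every interval below is a 95% interval for counting error only.

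Ly6C high monocytes leave the bone marrow through CCR2, circulate briefly and enter tissues. There they can become macrophages or antigen-presenting cells, or turn into Ly6C low monocytes that patrol vessels. In adipose tissue they are a blood-borne source of macrophages, which take up lipid, present antigen on MHC class II and respond to interferon.

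The comparison of the libraries turns in part on interferon-stimulated and MHC class II genes, for which short promoter motifs are well known. The promoters of 6 such genes that hold a motif are shown, chosen for the match. The windows are RefSeq sequences of GRCm38.p6, from 250 bases before to 50 bases after the start of the gene, read in the direction of the gene. In the first 4 promoters, capitals mark GAAA followed after any 2 bases by GAAA, on either strand, a form of the interferon-stimulated response element that STAT and IRF proteins bind.
Cxcl10 (chr5:92348840-92349139, minus strand): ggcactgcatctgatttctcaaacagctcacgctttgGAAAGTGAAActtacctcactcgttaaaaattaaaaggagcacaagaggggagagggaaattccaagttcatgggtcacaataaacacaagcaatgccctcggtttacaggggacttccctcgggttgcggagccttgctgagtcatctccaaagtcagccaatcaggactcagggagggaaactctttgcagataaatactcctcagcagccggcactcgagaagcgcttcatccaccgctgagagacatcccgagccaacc
Rsad2 (chr12:26456403-26456702, minus strand): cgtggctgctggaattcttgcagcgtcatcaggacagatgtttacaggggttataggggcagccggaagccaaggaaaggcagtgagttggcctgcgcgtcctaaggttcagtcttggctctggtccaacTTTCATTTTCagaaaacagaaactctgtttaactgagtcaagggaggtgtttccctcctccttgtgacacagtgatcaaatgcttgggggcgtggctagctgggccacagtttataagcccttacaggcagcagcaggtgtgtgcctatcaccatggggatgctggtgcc
Ifit3 (chr19:34583279-34583578, plus strand): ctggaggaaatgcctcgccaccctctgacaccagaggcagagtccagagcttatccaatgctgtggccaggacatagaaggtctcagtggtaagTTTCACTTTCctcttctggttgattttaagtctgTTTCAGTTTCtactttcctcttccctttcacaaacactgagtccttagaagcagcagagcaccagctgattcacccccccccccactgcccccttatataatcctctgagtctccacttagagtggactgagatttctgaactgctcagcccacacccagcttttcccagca
Isg15 (chr4:156200769-156201068, minus strand): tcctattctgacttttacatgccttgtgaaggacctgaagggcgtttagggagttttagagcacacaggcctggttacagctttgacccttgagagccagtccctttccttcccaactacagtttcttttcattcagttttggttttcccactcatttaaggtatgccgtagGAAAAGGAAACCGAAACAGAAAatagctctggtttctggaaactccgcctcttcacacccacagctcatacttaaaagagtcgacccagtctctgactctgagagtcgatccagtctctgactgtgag
In *Isg15*, which encodes a ubiquitin-like protein, 3 matches overlap. *Ifit3*, which encodes a protein of the antiviral IFIT family, has 2 matches. *Cxcl10*, a chemokine for T cells, and *Rsad2*, an antiviral enzyme, have 1 match each. In the next pair, capitals mark CTGATTGG on either strand, a form of the Y box found in promoters of MHC class II genes, whose products present peptides to CD4 T cells.
H2-Aa (chr17:34287774-34288073, minus strand): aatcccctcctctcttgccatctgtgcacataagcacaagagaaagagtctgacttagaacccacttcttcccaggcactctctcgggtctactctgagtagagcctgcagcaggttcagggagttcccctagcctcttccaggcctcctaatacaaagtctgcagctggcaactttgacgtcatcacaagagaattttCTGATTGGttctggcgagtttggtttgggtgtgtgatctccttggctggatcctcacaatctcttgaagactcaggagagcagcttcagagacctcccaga
H2-Eb1 (chr17:34305617-34305916, plus strand): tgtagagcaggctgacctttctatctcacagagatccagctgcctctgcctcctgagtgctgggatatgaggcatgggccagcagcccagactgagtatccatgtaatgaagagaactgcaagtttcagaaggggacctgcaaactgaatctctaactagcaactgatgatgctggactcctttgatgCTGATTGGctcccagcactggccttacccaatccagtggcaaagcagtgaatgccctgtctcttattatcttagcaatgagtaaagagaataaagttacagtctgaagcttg
The Y box begins 51 bases before the start in *H2-Aa* and 62 bases before it in *H2-Eb1*. Of all 32851 promoter windows, 3.44% held the first motif and 4.097% the second. Of the class II genes over the minimum, 2 of 3 windows of genes at least 1.5-fold higher in AdipoΔ/Δ members held the second motif, and 0 of 1 of the others. A match describes the letters and is not a site of binding.

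The label was checked against its 5 markers and against other cells (the plot of marker levels in 5 groups of cells). To give a level, UMIs were summed over the cells of a group and divided by all UMIs of those cells. *Ly6c2*, *Chil3* and *Vcan* chose the members, so their levels are a description. *Ly6c2*, the Ly6C antigen, whose reads can be shared with its near copy *Ly6c1*, stood at 1312 CPM (1264 to 1362) in control and 1633 CPM (1549.9 to 1720) in AdipoΔ/Δ members. *Chil3*, a chitinase-like protein, stood at 1326 and 1153 CPM, and *Vcan*, the proteoglycan versican, at 210.4 and 118 CPM, the control value first here and throughout. *Ms4a4c* and *Plac8*, which the rule did not use, stood at 551 and 569.8 CPM and at 3621 and 3977 CPM. Both markers are shared with neighbouring monocytes. *Plac8* reached 5770 and 6528 CPM in intermediate monocytes, which hold UMIs of both the Ly6C high and the Ly6C low markers, and 3002 and 1882 CPM in Ly6C low monocytes. *Ly6c2* was also at 426 and 845 CPM in T cells, so it does not mark monocytes alone. *Ccr2*, the receptor for monocyte chemokines, was at 1535 and 1399 CPM in members and at 72.7 and 107 CPM in T cells.

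**Figure D1:**
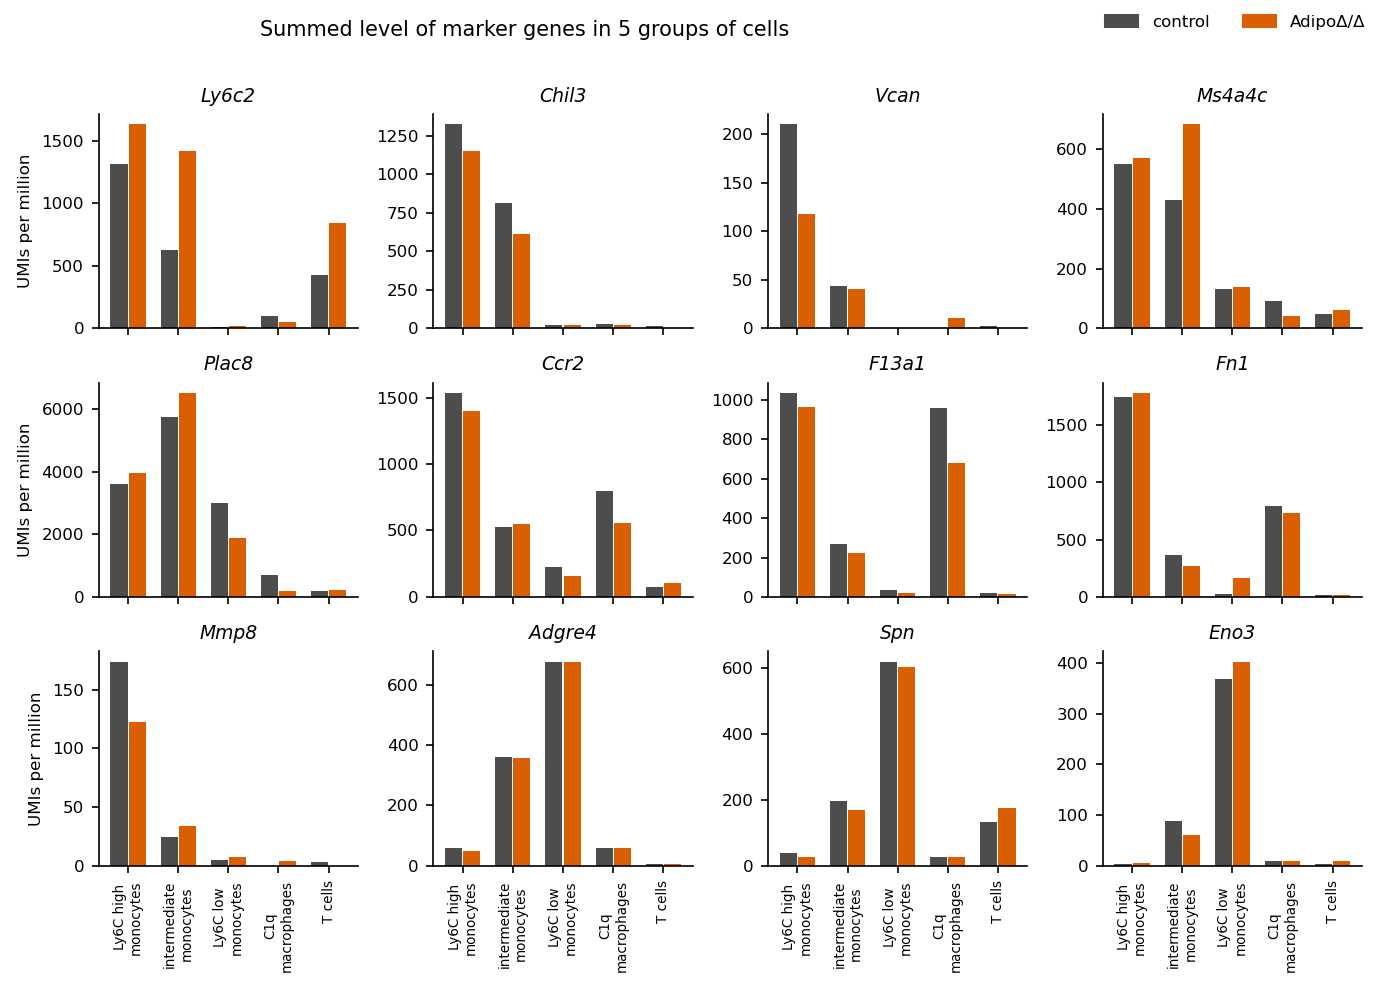
Summed level (y axis, UMIs per 1000000 UMIs of the group) of 12 marker genes in Ly6C high, intermediate and Ly6C low monocytes, C1q macrophages and T cells, with 1 bar for each library (gray control, orange AdipoΔ/Δ). *Ccr2* and *Fn1* are highest in the Ly6C high monocytes of both libraries, and *Adgre4*, *Spn* and *Eno3* in the Ly6C low monocytes. Bars have no error because each group is 1 library.

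Single members varied widely in the genes that chose them. The sum of *Ly6c2*, *Chil3* and *Vcan* had a median of 15 UMIs and a maximum of 136 in control, and a median of 14 and a maximum of 122 in AdipoΔ/Δ. *Chil3* was at 0 in 72 control and 35 AdipoΔ/Δ members, and *Vcan* at 0 in 146 and 63. *Lyz2*, the lysozyme of myeloid cells, ranged from 6.82 to 546 UMIs per 10000 in control, with a median of 252, and from 58.3 to 622 in AdipoΔ/Δ, with a median of 244. *Plac8* was found in every control member, whereas 9 AdipoΔ/Δ members had none. Its median was 32.4 UMIs per 10000 in control and 41.8 in AdipoΔ/Δ.

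*Ccr2* was at 0 in 21 control and 9 AdipoΔ/Δ members. After each cell was thinned to 2000 UMIs, which left out 16 control and 3 AdipoΔ/Δ members, 87.1% and 86.7% of members had a *Ccr2* UMI, against 92.5% and 91.7% without thinning. In thinned T cells the shares were 9.31% and 16.04%. Median depths before thinning were 4471 and 4948 UMIs in T cells and 7588 and 7257 UMIs in members.

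Cells just outside the lower limit, with 3 or 4 UMIs of *Ly6c2*, *Chil3* and *Vcan*, numbered 38 in control and 24 in AdipoΔ/Δ. Cells just inside it, with 5 or 6 UMIs, numbered 31 and 15. In control, *Plac8* was at 3557 CPM outside and 3468 CPM inside, and *Ccr2* at 1124 and 1498 CPM. Control cells just outside thus had as much *Plac8* as those inside and less *Ccr2*. In AdipoΔ/Δ, *Plac8* was at 2385 CPM outside and 2685 CPM inside, and *Ccr2* at 699 and 1402 CPM. The class II gene *H2-Aa* was at 3715 CPM in the AdipoΔ/Δ cells just inside the limit and at 1142 CPM in those just outside, and at 378 and 798 CPM in the corresponding control cells.

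To see what set the members apart from the other main monocyte of BAT, they were compared with Ly6C low monocytes (142 control and 115 AdipoΔ/Δ cells) within each library. Of 1866 genes with at least 100 UMIs in both kinds of cell together in each library, 99 (5.31%) were at least 2-fold higher in members in both libraries and 144 (7.72%) at least 2-fold lower. Both groups were chosen from the same cells by opposing limits, so these values describe the split and are not tested.

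*F13a1*, coagulation factor XIII, was at 1036 and 964 CPM in members and at 34.4 and 21.9 CPM in Ly6C low monocytes. *Fn1*, fibronectin, was at 1744 and 1781 CPM against 25.8 and 163 CPM, so that its excess was 67.7-fold in control and 10.9-fold in AdipoΔ/Δ. *Mmp8*, the neutrophil collagenase, and *Cd177*, a neutrophil surface protein, were also higher in members, at 174 and 123 CPM for *Mmp8* and at 114 and 111 CPM for *Cd177*. In neutrophils themselves *Mmp8* stood at 852 and 710.2 CPM. *Wfdc17*, a small secreted protein of myeloid cells, was 8.58-fold and 8.12-fold higher.

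In the other direction, *Adgre4*, an adhesion receptor, was at 57.9 and 50.05 CPM in members against 679 and 678 CPM. *Spn*, the sialophorin CD43, was at 38.5 and 26.2 CPM against 620.3 and 603 CPM. *Eno3*, the muscle enolase, was at 3.24 and 4.55 CPM against 369 and 404 CPM. *Csf1r*, the receptor for the macrophage growth factor, was present in both kinds of cell and lower in members, at 479 and 523 CPM against 1230.2 and 1357 CPM. *Cx3cr1*, the fractalkine receptor that marks patrolling monocytes, was at 114 and 136 CPM against 296 and 511 CPM. The study's line was also crossed to a *Cx3cr1* reporter allele, and the sources used here do not state whether these mice carried it.

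Variation among members lay largely in the same genes in both libraries. The variance of each gene beyond counting noise was ranked within each library, over 4500 genes in control and 2422 in AdipoΔ/Δ members, and 26 genes stood among the 40 highest in both. The class II genes *Cd74*, *H2-Aa*, *H2-Ab1* and *H2-Eb1* ranked 3, 10, 16 and 24 in control and 2, 5, 6 and 10 in AdipoΔ/Δ. *Ifi27l2a*, *Isg15*, *Ifitm3* and *Cxcl10*, which interferon induces, ranked 5, 19, 31 and 34 in control and 4, 36, 25 and 28 in AdipoΔ/Δ. *Chil3*, *Lyz2* and *Ly6c2* are genes of the rule, whose limits cut their own spread. *Fn1*, *Plac8*, *Vim*, *Apoe*, *Fos* and the ferritin chain *Fth1* were also shared, as were mitochondrial transcripts, the nuclear RNA *Malat1* and *Gm42418*, which takes up reads of ribosomal RNA.

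Members were a smaller share of the AdipoΔ/Δ library. They made up 12.3% (10.97 to 13.7) of control cells and 5.36% (4.41 to 6.43) of AdipoΔ/Δ cells, a ratio of 0.436. By flow cytometry the study counted more monocytes in the BAT of AdipoΔ/Δ mice, and shares of sorted cells do not give such numbers. Shares of a library sum to the whole, and C1q macrophages were 3.64% of control and 12.9% of AdipoΔ/Δ cells. Without these macrophages in the denominator the ratio was 0.482. Among members, intermediate and Ly6C low monocytes together it was 0.758. The limits on absolute UMI numbers bear on the share too. With every cell thinned to 2000 UMIs before the rule, the ratio was 0.5898. The limit on C1q alone left out 1 control cell and 15 AdipoΔ/Δ cells that passed all others, 6 of the latter with 2 to 4 C1q UMIs. C1q UMIs were found in 1.68% of control and 16.7% of AdipoΔ/Δ T cells, which do not make C1q. These T cells were themselves limited to at most 1 C1q UMI, so T cells with more are not counted there. With the cells left out by the C1q limit alone counted as members, the ratio was 0.495. The same count for the limit on *Ly6c2*, *Chil3* and *Vcan*, which alone left out 224 control and 318 AdipoΔ/Δ cells, gave 0.956, and for each of the other limits 0.4297 to 0.5303.

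Some values of the whole libraries touch the comparison that follows. *Gm42418* took 9.07% of member UMIs in control and 4.78% in AdipoΔ/Δ, and 9.42% and 4.700% of T cell UMIs. The libraries share 4 barcodes, of which 2 are AdipoΔ/Δ members and 0 are control members. No doublet caller was run. T cell markers came to 12.05 and 9.099 CPM in control and AdipoΔ/Δ members, B cell markers to 249 and 279 CPM, natural killer cell markers to 114 and 20.5 CPM, neutrophil markers to 137 and 98.95 CPM, adipocyte markers to 8.34 and 23.9 CPM, and erythroid and platelet markers to 36.1 and 42.1 CPM. The ratios of the T cell, B cell, natural killer cell, adipocyte, and erythroid and platelet markers each turned direction in at least 1 other setting, and that of the neutrophil markers in none of those run.

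The comparison of AdipoΔ/Δ with control members addresses how monocytes differ in a tissue whose adipocytes lack ATGL. Most genes were at near levels, as the plot of all gene levels shows. Most MHC class II genes over the minimum (5 of 6), 25 of 57 interferon-stimulated genes and 8 of 20 lipid genes were at least 1.5-fold higher in AdipoΔ/Δ members, while a few neutrophil-type and immediate early genes were lower. Of 3573 genes with at least 100 UMIs in members of both libraries together, 226 (6.33%) were at least 1.5-fold higher and 87 (2.43%) at least 1.5-fold lower in AdipoΔ/Δ. The split depended on the scaling, with 158 genes higher and 118 lower under median-of-ratios scaling, and 162 and 117 with *Gm42418*, *Lars2* and *Gm26917* left out of the totals. The median log2 ratio over all genes with at least 100 UMIs, scaled by the totals, was 0.073. In T cells 15.5% of genes passed the same limit upward, in B cells 7.3%, in C1q macrophages 18.7%, in neutrophils 13% and in Ly6C low monocytes 7.03%.

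**Figure D2:**
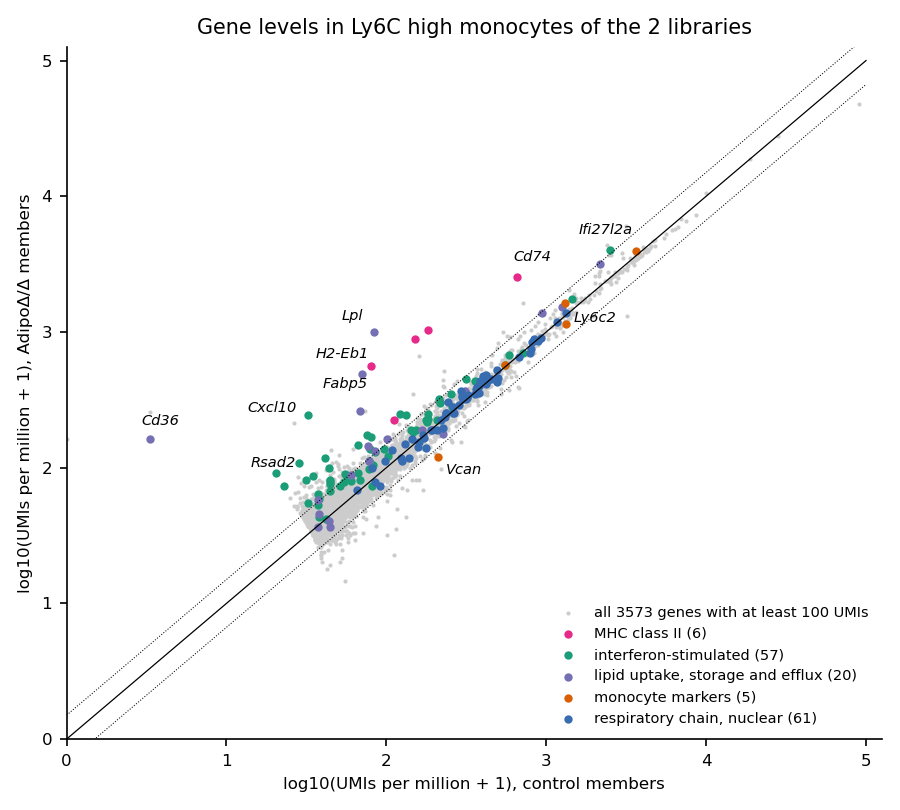
Each point is 1 of the 3573 genes, placed by log10(CPM + 1) in control members (x axis) and AdipoΔ/Δ members (y axis). The solid line marks equal levels and the dotted lines 1.5-fold differences. Most class II genes (pink) and *Lpl*, *Fabp5* and *Cd36* (purple) lie above the lines, and the 61 nuclear respiratory chain genes (blue) lie between them.

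A subset of AdipoΔ/Δ members carried macrophage transcripts, and many values below are therefore given with and without such cells. A list of 10 macrophage markers that the rule did not use (*Mrc1*, *Folr2*, *Lyve1*, *Mertk*, *Ms4a7*, *Gpnmb*, *Trem2*, *Fcrls*, *Ecm1* and *Pf4*) summed to 107 and 462 CPM in control and AdipoΔ/Δ members, to 11.9 and 42.04 CPM in T cells and to 5052 and 4581 CPM in C1q macrophages. *Trem2* gave 163 of the 231 list UMIs of control members and 127 of the 406 of AdipoΔ/Δ members. At least 3 UMIs of the list were found in 22 control members (7.86%, 4.99 to 11.7) and in 26 AdipoΔ/Δ members (24.1%, 16.4 to 33.3). The cells with at least 3 UMIs differed between the libraries. *Plac8* was at 3194 and 1743 CPM in them, *Lpl* at 48.8 and 2679 CPM and *Gpnmb* at 4.44 and 330 CPM. Without these cells, 258 control and 82 AdipoΔ/Δ members were left. Of 3098 genes over the minimum there, 179 (5.78%) were at least 1.5-fold higher and 73 (2.36%) at least 1.5-fold lower, and 93 genes were higher in both versions. This choice was made after the values were seen.

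MHC class II had the highest median ratio of the lists. Its 11 genes summed to 1413 and 5587 CPM in control and AdipoΔ/Δ members, a ratio of 3.95 (3.78 to 4.14). Of 6 genes over the minimum, 5 were at least 1.5-fold higher, against 6.33% of all genes, and 0 lower, with a median log2 ratio of 2.24. *H2-Aa* and *H2-Ab1* encode the chains of I-A. *H2-Aa* was at 180.2 CPM (163 to 199) in control and 1032 CPM (966 to 1101) in AdipoΔ/Δ, and *H2-Ab1* was 5.86-fold higher. *H2-Eb1*, the beta chain of I-E, was at 79.7 and 556 CPM, 6.98-fold higher (5.85 to 8.35). *Cd74*, the invariant chain that guides class II through the cell, was at 651 and 2538 CPM, 3.901-fold higher. *H2-DMb1*, a subunit of the peptide editor H2-DM, was 2.03-fold higher, and *H2-DMa* 1.403-fold. *Ciita*, the master activator of class II promoters, had 36 of 2158141 control and 38 of 879215 AdipoΔ/Δ member UMIs. These unequal totals mean that near-equal counts are not equal levels, and under the minimum no fold is counted.

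Most class II UMIs lay in a few rich cells. The split below uses the class II share itself, so the levels on either side of it are a description. At least 1% of UMIs came from the list in 9 control members (3.21%, 1.48 to 6.01) and 13 AdipoΔ/Δ members (12.04%, 6.57 to 19.7). These cells held 81.5% of the *H2-Aa* UMIs of control and 84.6% of those of AdipoΔ/Δ members. *Cd74* was at 9337 and 13559 CPM in them, *H2-Aa* at 3814 and 6242 CPM and *Plac8* at 3369 and 2971 CPM. Of the AdipoΔ/Δ cells, 9 had at least 3 macrophage marker UMIs, against 0 of the control cells. In the 249 control and 78 AdipoΔ/Δ members that had neither feature, *Cd74* was at 303 and 559.5 CPM and *H2-Aa* at 35.1 and 113 CPM.

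The median class II share of single members was 0.0337% in control and 0.0867% in AdipoΔ/Δ, so that the typical member had little class II in both. Thinned to 2000 UMIs, 8.71% and 30.5% of members had an *H2-Aa* UMI, 18.2% and 48.1% unthinned, and 4.86% and 13.4% of thinned T cells had one. Without members with macrophage markers, the list ratio was 1.74, with 5 of 6 genes past 1.5-fold, and *H2-Eb1* was 2.25-fold higher (1.76 to 2.87). The list summed to 199 and 309.8 CPM in T cells, a ratio of 1.56, and its ratio was 1.79 in intermediate monocytes, 1.42 in Ly6C low monocytes, 4.02 in neutrophils and 0.811 in C1q macrophages. The part of free RNA in the members' ratio was not tested.

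**Figure D3:**
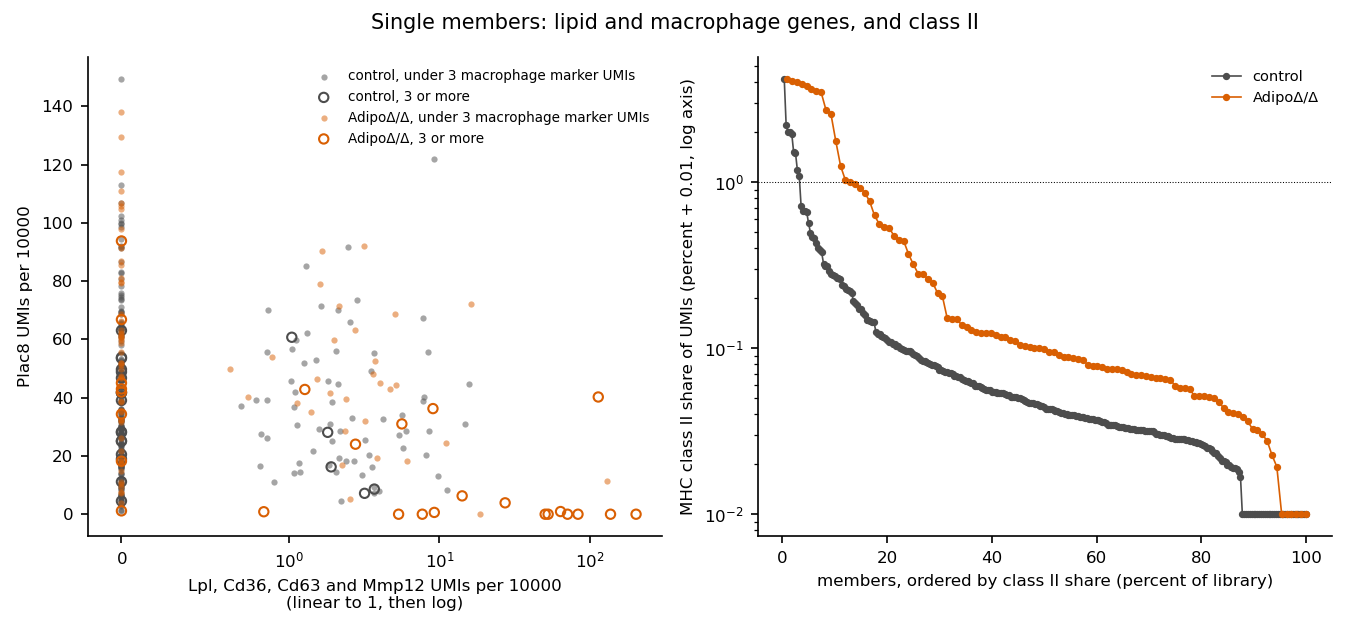
Each point is 1 member (gray control, orange AdipoΔ/Δ). Left, *Plac8* UMIs per 10000 (y axis) against the UMIs of *Lpl*, *Cd36*, *Cd63* and *Mmp12* per 10000 (x axis, linear to 1 and log beyond), with open circles for members with at least 3 macrophage marker UMIs. The cells at the far right are AdipoΔ/Δ cells, most with little *Plac8*. Right, class II share of UMIs (percent + 0.01, log axis) of members in descending order, where the curves cross the dotted line at 1% at 12.04% of AdipoΔ/Δ and 3.21% of control members.

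Many interferon-stimulated genes were higher in AdipoΔ/Δ members. Of 57 genes over the minimum, 25 were at least 1.5-fold higher and 0 at least 1.5-fold lower, against 6.33% and 2.43% of all genes. The 73 genes analysed summed to 11121 and 15736 CPM, a ratio of 1.41 (1.39 to 1.44), and the median log2 ratio was 0.53. Without members with macrophage markers, 36 of 54 genes were past 1.5-fold, 0 were lower, and the ratio was 1.58. Of the genes past 1.5-fold among all members, 20 have a promoter window, and 15 of these windows (75%) hold the first motif shown above. Of the 32 other genes over the minimum, 26 have a window, and 10 (38.5%) hold it.

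*Cxcl10* had the highest ratio of the list. It was at 31.5 CPM (24.5 to 39.9) in control and 245 CPM (213 to 279.5) in AdipoΔ/Δ, 7.76-fold higher (5.88 to 10.4), and 8.41-fold without members with macrophage markers. Few cells held it. *Cxcl10* UMIs were found in 16 control and 10 AdipoΔ/Δ members, and 5 cells held 77.9% of them in control and 92.1% in AdipoΔ/Δ. The share of thinned members with a *Cxcl10* UMI was 3.03% and 7.62%, 5.71% and 9.26% unthinned, and 0% and 1.07% in T cells.

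Antiviral effectors and factors of interferon signalling were among the higher genes. *Ifi213*, of the DNA-sensing HIN-200 family, was 4.68-fold higher, *Rsad2* 3.95-fold (2.83 to 5.57), *Ifit2* 3.34-fold and *Ifit3*, whose reads can be shared with a near copy, 2.88-fold. *Usp18*, a brake on interferon receptor signalling, was 2.64-fold higher, and *Stat2*, a subunit of the factor that binds the response element, 2.32-fold. *Irf7*, which amplifies interferon production, was at 121 and 247 CPM, 2.03-fold higher (1.69 to 2.44). *Isg15* was at 131 and 242 CPM. *Fcgr1*, the high-affinity IgG receptor CD64, was at 75.1 and 172 CPM, 2.29-fold higher (1.82 to 2.87) and 1.94-fold (1.44 to 2.59) without members with macrophage markers.

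Abundant genes of the list were found in most cells. *Ifi27l2a*, a small mitochondrial protein, was at 2515 and 3996 CPM. Its median was 21.7 UMIs per 10000 in control and 34.98 in AdipoΔ/Δ members, and its maximum 147 and 181. The share of the whole list in single members had a median of 0.974% and a maximum of 5.29% in control, and a median of 1.44% and a maximum of 7.78% in AdipoΔ/Δ, so that the cells of the libraries overlapped widely. Some abundant genes were closer to equal. *Ly6e*, a surface protein that limits viral entry, was 1.21-fold higher and *Samhd1*, a nucleotide hydrolase, was at 712 and 698 CPM. The list was higher in AdipoΔ/Δ cells of other kinds as well, with ratios of 1.45 in T cells, 1.29 in B cells, 1.42 in intermediate monocytes, 1.24 in Ly6C low monocytes and 2.14 in neutrophils, whereas the ratio in C1q macrophages was 0.821.

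**Figure D4:**
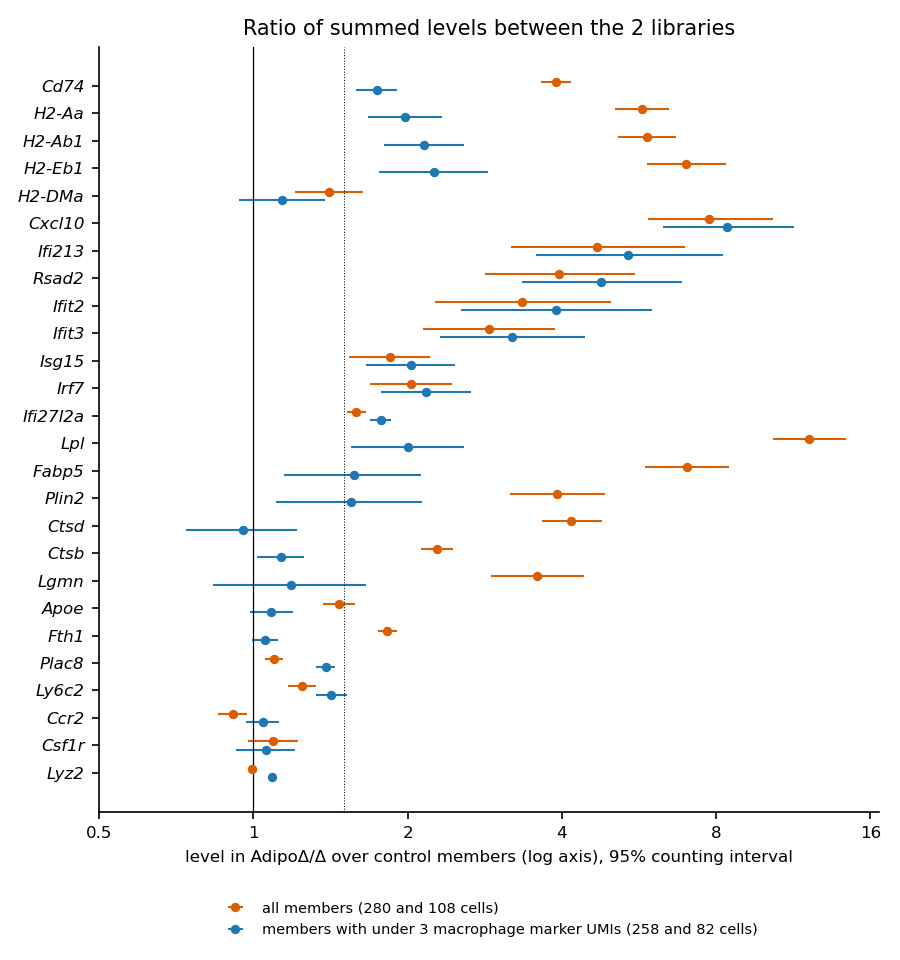
Ratio of the summed level in AdipoΔ/Δ over control members (x axis, log scale) for named genes, with 95% counting intervals. Orange points hold all members, blue points those with under 3 macrophage marker UMIs. The interferon genes from *Cxcl10* to *Ifi27l2a* stay beyond the dotted line at 1.5 in both, *Ctsd*, *Ctsb*, *Lgmn*, *Apoe* and *Fth1* lie nearer to 1 in blue, and the class II genes lie between 1.14 and 2.25 in blue.

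Genes of lipid uptake, storage and lysosomes had the highest single ratios, and these rested on a small number of cells. The lipid list summed to 6005 and 9719 CPM, a ratio of 1.62 (1.57 to 1.66), with 8 of 20 genes at least 1.5-fold higher and 0 lower. The macrophage maturation list had 9 of 19 genes higher and a ratio of 1.68. Of all genes over the minimum, 6.33% were higher. *Lpl*, the lipase that frees fatty acids from lipoproteins, was at 82.5 and 1002 CPM, 12.1-fold higher (10.3 to 14.4). *Cd36*, a fatty acid transporter, had 5 and 142 UMIs, a ratio of 69.7 (29.2 to 218). *Cd63*, a lysosomal tetraspanin, had 5 and 224 UMIs, a ratio of 110.0 (46.4 to 342). *Mmp12*, the macrophage elastase, had 0 and 142 UMIs, at least 116-fold higher against a floor of 3 counts over the control members (93.3-fold at the lower end of the interval used for the other ratios), and 114 of its UMIs lay in 1 cell. *Fabp5*, a fatty acid carrier, was 7.004-fold higher and *Plin2*, which coats lipid droplets, 3.91-fold. The lysosomal proteases *Ctsd*, *Lgmn* and *Ctsb* had ratios of 4.18, 3.58 and 2.28.

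At least 10 UMIs of *Lpl*, *Cd36*, *Cd63* and *Mmp12* together were found in 12 AdipoΔ/Δ members (11.1%, 5.87 to 18.6) and 2 control members (0.714%, 0.0866 to 2.56). The 12 AdipoΔ/Δ cells went against the label. *Plac8* was at 770.3 CPM in them and *F13a1* at 128 CPM, and 7 had at most 1 *Plac8* UMI. *Trem2*, a lipid receptor of macrophages, was at 561 CPM, *Gpnmb*, a glycoprotein of lipid-laden macrophages, at 635 CPM and *Ctsd* at 3020.5 CPM. At least 3 macrophage marker UMIs were present in 10 of them, while *C1qb*, which the rule limits, was at 13.5 CPM.

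Members with macrophage markers held 88.4% of the *Lpl*, 84.8% of the *Fabp5*, 85.5% of the *Ctsd*, 97.9% of the *Cd36* and 97.8% of the *Cd63* UMIs of AdipoΔ/Δ members. Without them *Lpl* was 2.01-fold higher (1.55 to 2.58), *Fabp5* 1.57-fold (1.15 to 2.12) and *Plin2* 1.55-fold (1.11 to 2.14). *Ctsd* then had a ratio of 0.953 (0.739 to 1.22). The lipid list had a ratio of 1.15 there. The maturation list had one of 1.100, with 0 of 16 genes at least 1.5-fold higher and 1 lower. The cells were left out by macrophage markers, so the fall of the maturation list is in part built in. *Fth1* and *Ftl1*, the chains of ferritin, were 1.82- and 1.91-fold higher in all members and had ratios of 1.06 and 1.03 without these cells. Thinned members had an *Lpl* UMI in 11.4% and 24.8%, Ly6C low monocytes in 2.63% and 10.9%, and T cells in 0.81% and 4.81%. The lipid list ratio was 1.65 in intermediate and 1.18 in Ly6C low monocytes and 1.68 in C1q macrophages. In T cells it was 1.11, in B cells 4.11 and in neutrophils 1.17. The part of free RNA in the members' ratios was not tested.

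*Retnla*, a secreted product of alternatively activated macrophages, was 8.301-fold higher, with 102 of its 186 AdipoΔ/Δ UMIs in 1 cell, and 3.904-fold without members with macrophage markers. Thinned members had a *Retnla* UMI in 4.55% and 17.1% of cells, 15.7% and 50.9% unthinned. Thinned T cells had it in 6.07% and 19.8%, so the members' shares were at the background.

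Lists of monocyte effector, receptor and adhesion genes had ratios near 1, while single genes such as *Vcan* and *Fpr2* were lower. *Vcan*, a gene of the rule, had a ratio of 0.562 (0.4499 to 0.697). Its log2 ratio was -0.32 after thinning, short of 1.5-fold. In members with neither 3 macrophage marker UMIs nor class II at 1% of UMIs, *Vcan* was at 190 and 143 CPM. The list of 30 effector and secreted genes had 0 of 26 genes higher and 1 lower, against 6.33% and 2.43% of all genes. The lower gene was *Gsr*, glutathione reductase, at a ratio of 0.634. The list ratio was 1.010. Without *Lyz2*, which the rule uses, the ratio was 1.03. *Lyz2* was at 28216 and 28024 CPM and the calcium-binding *S100a6* at 4049.8 and 4259.5 CPM. Chemokine and chemoattractant receptors had a list ratio of 0.993. *Ccr2* had a ratio of 0.912 (0.853 to 0.974) and *Cx3cr1* one of 1.19 (0.951 to 1.49). *Fpr2*, a receptor for formylated peptides, was at 50.04 and 19.3 CPM, a ratio of 0.386 (0.217 to 0.648), and *Ptafr*, the receptor for platelet-activating factor, had a ratio of 1.53, or 1.04 without members with macrophage markers, and was below 1 with at most 2% mitochondrial UMIs and after thinning. Adhesion genes had a list ratio of 1.03, with 1 of 11 genes higher, against 6.33% of all genes, *Icam1* at 1.75. *Itgb2*, the beta chain of leukocyte integrins, was at 363 and 477 CPM, and *Selplg*, the ligand of P-selectin, at 299.8 and 279.8 CPM.

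Of 31 transcription factors over the minimum, 1 was higher and 1 lower, near the 6.33% and 2.43% of all genes over the minimum. *Spi1*, which encodes PU.1, was at 590.3 and 559.6 CPM, *Cebpb* at 1122 and 989.5 CPM, *Irf8* at 233 and 205 CPM and *Klf4* at 184 and 142 CPM. These factors of the monocyte lineage stayed within 1.5-fold. *Maf*, a macrophage factor, was 2.501-fold higher, with a ratio of 0.929 without members with macrophage markers. Growth factor receptors had a list ratio of 1.06, and *Csf1r* was at 479 and 523 CPM. Of 22 pattern recognition and Fc receptors over the minimum, 6 were higher, against 6.33% of all such genes. Without members with macrophage markers, 2 of 17 were higher, against 5.78% of all genes over the minimum there. *Clec4d*, a receptor for fungal and mycobacterial glycolipids, was 3.13-fold higher and had a ratio of 0.821 without members with macrophage markers. The shared signalling adaptors *Tyrobp* and *Fcer1g* were at 3604 and 3616 CPM and 2529 and 2519 CPM.

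None of the 61 nuclear respiratory chain genes passed 1.5-fold in either direction, with a list ratio of 1.014. Of 12 transcripts of mitochondrial DNA, 4 were higher, against 6.33% of all genes. Their list ratio was 1.33, or 1.13 without members with macrophage markers. The glycolysis and hypoxia list had a ratio of 1.09, or 1.005 without those cells.

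**Figure D5:**
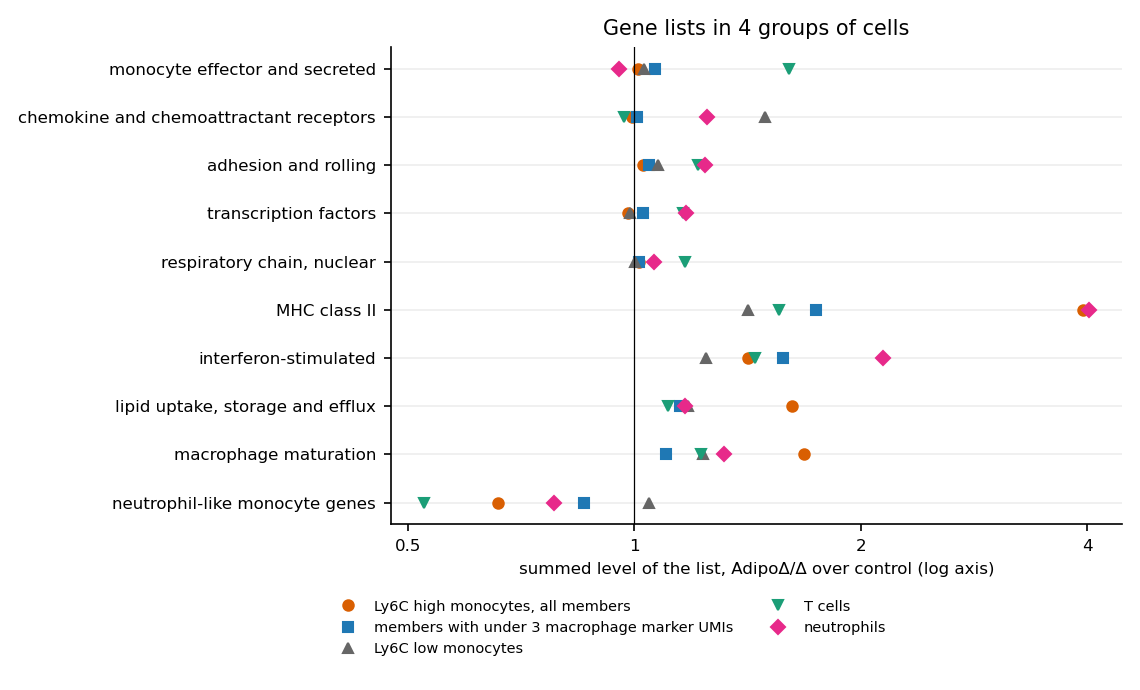
Ratio of the summed level in AdipoΔ/Δ over control cells (x axis, log scale) for gene lists, with 1 symbol for each group of cells. Monocyte effector, receptor, adhesion, transcription factor and respiratory chain lists lie near 1 in Ly6C high monocytes (orange circles), and class II lies at 3.95, or at 1.74 without members with macrophage markers (blue squares).

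Several genes of neutrophil-like monocytes were lower in AdipoΔ/Δ members. The list had 5 of 9 genes at least 1.5-fold lower, against 2.43% of all genes, and 0 higher. Its ratio was 0.658 (0.606 to 0.713). Without members with macrophage markers the ratio was 0.858, with 2 of 8 genes lower, against 2.36% of all genes there. The rule limits *S100a8* and *S100a9*, the subunits of calprotectin. Without them, 3 of 7 genes were lower and the list ratio was 0.737 (0.676 to 0.802). *S100a8* and *S100a9* were at 111 and 21.6 CPM and at 99.6 and 30.7 CPM. In T cells, which do not make calprotectin, their ratios were 0.159 and 0.196, and the list ratio was 0.524. These T cells, too, were chosen with *S100a8* and *S100a9* under 2% of UMIs. *Mcemp1*, a myeloid membrane protein, had a ratio of 0.625, and 0.864 without members with macrophage markers. *Pglyrp1*, a peptidoglycan-binding protein of granules, was at 41.7 and 17.1 CPM. Neutrophils were 12.7% of control and 7.19% of AdipoΔ/Δ cells. The part of their free RNA in these ratios was not tested.

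Some immediate early genes were lower and some heat shock genes higher in AdipoΔ/Δ members. The list of both kinds had 5 of 26 genes higher and 4 lower, against 6.33% and 2.43% of all genes over the minimum. In T cells 12 of 20 were higher and 0 lower, where 15.5% of all genes were higher. In Ly6C low monocytes 5 of 18 were higher and 0 lower, where 7.03% of all genes were higher. *Nr4a1*, the orphan receptor on which Ly6C low monocytes depend, was at 167 CPM (150.5 to 185) in control and 67.1 CPM (51.1 to 86.6) in AdipoΔ/Δ, a ratio of 0.401. Thinned members had an *Nr4a1* UMI in 23.9% and 10.5%, 48.2% and 27.8% unthinned, and thinned T cells in 1.62% and 1.07%. Thinned Ly6C low monocytes had one in 82.5% and 65.2%, so the lower share was not particular to the members. *Dusp1*, a phosphatase of MAP kinases, and *Fos* had ratios of 0.529 and 0.596. The heat shock genes *Hspa1a* and *Hspa1b*, near-identical copies among which reads can be split, were 2.38- and 2.03-fold higher, and their co-chaperone *Dnaja1* 1.99-fold. In T cells *Fos* had a ratio of 1.72, and *Nr4a1* and *Dusp1* were under the minimum of 100 UMIs.

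Other genes with small ratios rested on single control cells. *Ccl5*, a chemokine of cytotoxic lymphocytes, had 247 UMIs in control members, 109 of them in 1 cell, and its ratio of 0.298 turned to above 1 with at most 2% mitochondrial UMIs and after thinning. *Gzma*, a granzyme of killer cells, had 117 UMIs, 70 of them in 1 cell, and *Lyz1*, a near copy of *Lyz2* with which reads can be confused, had 283, 205 of them in 1 cell. Few members carried genes of division. Of 2158141 control and 879215 AdipoΔ/Δ member UMIs, *Mki67* had 18 and 16, and *Top2a* 10 and 0. Relative to these unequal totals, *Mki67* was higher in AdipoΔ/Δ members, whereas *Top2a* was lower. Both genes were under the minimum, so no fold is counted. After thinning, *Mki67* was found in 2.27% (0.839 to 4.88) and 0.952% (0.0241 to 5.19) of members, 4.64% and 3.704% unthinned. In thinned T cells the shares were 0.8097% and 5.35%. The members' shares thus pointed the other way from their *Mki67* UMIs, with overlapping intervals, so no direction is given for division.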

How the data were processed

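Single-cell 3′ RNA libraries of sorted CD45+ BAT cells were made from 1 control and 1 AdipoΔ/Δ sample. The authors deposited UMI counts per gene and barcode, made with Cell Ranger 4.0.0 on mm10, and their processing notes also name Seurat. These counts were used as deposited. A barcode was kept from 200 detected genes upward and up to a mitochondrial share of 10% (2% in the study's methods, tried as an alternative), which left 2279 of 2597 control and 2016 of 2381 AdipoΔ/Δ barcodes, with 11327187 and 12028844 UMIs in all barcodes. Member UMIs were summed per library and scaled to CPM. Intervals were exact Poisson for levels, Clopper-Pearson for shares and conditional binomial for ratios. No test was run, since each group is 1 library. Variance was the analytic Pearson residual variance. Genes were named by a rule on size of ratio, list membership and spread. Some genes are not reported here. The members and gene lists were chosen with earlier results of these data known. Alternatives changed cell limits, depth, scaling, minimum UMIs and fold, and left out the 5% deepest members and shared barcodes. Scripts were tested on simulated data and ran on Python 3.11.15, NumPy 2.4.6, SciPy 1.17.1 and pandas 2.3.3.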

Additional observations from a re-analysis of the deposited data

How the results depend on the processing

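No paired analysis was possible because each group is 1 library, and for the same reason no replicate could be left out. The share of members was 18.1% of control and 8.999% of AdipoΔ/Δ cells with at most 2% mitochondrial UMIs, 13.9% and 6.55% with at least 3 UMIs of the 3 genes of the rule, and 9.21% and 3.77% with at least 10. Thinning before the rule gave 9.16% of control cells and a ratio of 0.5898, and the ratio among all monocytes was 0.758. The AdipoΔ/Δ share was 4.07% without members with macrophage markers and 4.12% without members with any C1q UMI. Genes at least 1.5-fold higher numbered 141 with the 2% mitochondrial limit and 127 after thinning, and those at least 2-fold lower than in Ly6C low monocytes 93 and 94. With a minimum of 50, 200 and 1 UMIs, 519, 82 and 2879 genes were higher and 222, 32 and 2620 lower in AdipoΔ/Δ, while 160, 61 and 1190 were higher and 245, 64 and 802 lower than in Ly6C low monocytes, since other numbers of genes are counted. At 2-fold, 58 genes were higher and 21 lower in AdipoΔ/Δ.

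Some log2 ratios changed sign. With the 2% mitochondrial limit and after thinning, they were 1.19 and 0.87 for *Ccl5*, -0.29 and -0.10 for *Ptafr*, and 0.033 and 0.10 for the natural killer cell markers. *Timp2* was at -0.022 with that limit and the adipocyte markers at -0.16 after thinning. Without members with macrophage markers, *Ctsd* was at -0.070, *Trem2* at -0.65, *Clec4d* at -0.28 and *Maf* at -0.11. *Trem2* is 1 of the markers that chose those members, so its value there is set in part by the filter. Apart from the alternatives' own construction (other cells or genes counted), the cause was not tested. Of 54 named genes past 1.5-fold, 31 stayed past it in every setting and 47 kept their direction. The 31 include *Cd36* and *Cd63*, with 97.9% and 97.8% of their AdipoΔ/Δ UMIs in members with macrophage markers. Without those members both genes fell under the minimum of 100 UMIs, so their ratios there rest on few counts. Leaving out members with macrophage markers, members with any C1q UMI, or *Gm42418*, *Lars2* and *Gm26917* from the totals, or the genes of the rule from the lists, was chosen after seeing the data. Depth limits genes under 100 UMIs, for which no fold is counted, and 1 library per group limits every comparison to counting error.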

Other observations

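Of the chemokine and cytokine genes in members, 2 of 14 genes over the minimum were at least 1.5-fold higher in AdipoΔ/Δ and 1 lower. Of all genes over the minimum, 6.33% were higher and 2.43% lower. The chemokines *Ccl6* and *Ccl9* were at 844 and 1096 CPM and 602 and 737 CPM in control and AdipoΔ/Δ members. *Nfkbiz*, a nuclear regulator of NF-kB target genes, was at 25.5 and 51.2 CPM, 2.01-fold higher (1.32 to 3.03), and 2.17-fold without members with macrophage markers. *Il1b* was at 51.4 and 56.9 CPM.

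Of the growth factors for stroma and vessels, *Tgfb1* was at 349.8 and 345 CPM and *Tgfbi*, a matrix protein that TGF-beta induces, at 567 and 599 CPM. Of 4 dendritic cell genes over the minimum, 3 were higher, against 6.33% of all such genes. *Batf3*, a factor of cross-presenting dendritic cells, was at 1.58-fold, or 1.23 without members with macrophage markers. Without those members, 2 genes of the list were over the minimum and 1 was higher. Of 16 Ly6C low monocyte genes, 2 were higher and 1 lower, against 6.33% and 2.43% of all such genes, with a list ratio of 0.9497. The proliferation list had a ratio of 0.888, with 1 of 6 genes lower.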
